A study of Rattus norvegicus with 26 samples.

Results

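Complement genes encode a protein cascade of innate immunity, and 9 of them were followed here in the dentate gyrus (DG), the part of the hippocampus where the granule cells lie. The 9 genes were selected by name: C1qa, C1qb, C1qc, C1s, C4a, C3, C3ar1, C5ar1 and Serping1. They are 9 of the 17910 genes with values, and all 9 had a mean of at least 5 normalized read counts and so entered the tests. The DG was taken from 26 male F344 rats of 6 months, with 1 library per rat. The Veh group (n = 10) received vehicle by oral gavage and belonged to an ongoing study of brain aging. The Dox group (n = 8) received doxorubicin, an anthracycline chemotherapy drug, at 2 mg/kg by intraperitoneal injection once a week for 4 weeks. The Dox + ABT group (n = 8) received the same doxorubicin and, by gavage, 12 mg/kg ABT-263 on 5 consecutive days in each of 2 courses. ABT-263 (navitoclax) inhibits Bcl-2 family proteins and is used as a senolytic, an agent that kills senescent cells. Tissue was collected after behavioral testing, which began after the last dose, so the libraries describe the DG after and not during treatment. The rats are separate animals, and since the Veh rats belonged to that other study, the source of the animals and the treatment cannot be told apart in comparisons with Veh.

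The cascade can start when C1q, a protein built from the products of C1qa, C1qb and C1qc, binds a surface and activates the proteases C1r and C1s. C1s then cleaves C4 and C2, and the resulting enzyme cleaves C3, the component on which all starting routes meet. The C3a and C5a fragments signal through the receptors encoded by C3ar1 and C5ar1, and the C1 inhibitor encoded by Serping1 blocks C1r and C1s. In brain, C1q is made mainly by microglia, C1q and C3 tag synapses for removal by these cells, and C4 and C3 are also made by astrocytes.

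Levels are normalized read counts: reads per gene after division by a size factor for each library, so that rats can be compared. They are not divided by gene length, and levels of different genes are therefore not compared. An estimated 10170000 to 24330000 reads per library stood behind the values, and the group medians were 16700000 (Veh), 15650000 (Dox) and 15120000 (Dox + ABT). C1qa, C1qb, C1qc and C3 rested on 83 to 1428 estimated reads in each rat, C1s, C4a and Serping1 on 17.1 to 203.9, and C3ar1 and C5ar1 on 3 to 63. Changes are log2 fold changes of the normalized read count plus 1, with standard errors from limma, and a gene was called when its unadjusted two-sided p was under 0.01, the threshold of the study. Beyond the treatments, the libraries fell into a pair of kinds along the leading component of their within-group variation, which held 28.4% of that variation. The first kind held 4 Veh, 5 Dox and 7 Dox + ABT libraries, and the second kind held 6, 3 and 1. What separates the kinds is not given by the labels, so changes within each kind are set beside the pooled ones. The defining microglial markers, Aif1, Cx3cr1, P2ry12, Tmem119 and Csf1r among them, were above 0 in all 26 libraries.

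Of the 9 genes, 1 was called lower in Dox than in Veh, C3, where 1.85% of all 15595 tested genes were called lower and 1.02% higher. Against Veh, Dox + ABT had 1 called higher, C4a, where 3.89% of all genes were called higher and 3.95% lower. Against Dox, Dox + ABT had 2 called higher, C3 and C1s, where 1.71% of all genes were called higher and 2.32% lower. In this fit none of the 9 reached a Benjamini-Hochberg adjusted p under 0.05 in limma in any of the 3 comparisons. At an unadjusted p under 0.05 limma gave 3, 1 and 2 of the genes in the same order of comparisons, where 10.2%, 22.5% and 12.7% of all genes had one, and exact permutation tests over rats also gave 3, 1 and 2. At a p under 0.01 the exact tests gave 1, 1 and 1, since C3 in Dox + ABT against Dox was not among them. Weights that count noisier libraries less (limma arrayWeights) gave their highest value in Veh, 2.987, to a library of the second kind. In Dox and Dox + ABT the highest, 2.169 and 2.086, went to libraries of the first kind. Under these weights the genes called were partly others. C4a was then called higher in Dox than in Veh, by 0.61 (limma p = 0.00252, adjusted p = 0.0228), and C3 was not called, where 9.25% of all genes were called higher and 11% lower. In Dox + ABT against Veh C4a was called higher (0.67, adjusted p = 0.00325), where 15.5% of all genes were called higher and 18.4% lower. In Dox + ABT against Dox C1s was called higher (0.38, adjusted p = 0.0499), and C1qa and C1qc were called lower (-0.46 and -0.48, adjusted p = 0.0413 and 0.0956), where 4.32% of all genes were called higher and 6.01% lower. An adjusted p under 0.05 was reached with these weights by 20.3%, 39.4% and 4.28% of all genes in the 3 comparisons. With weights and the kind of library together, C1s and C1qa reached it in Dox + ABT against Dox (0.37 and -0.45, adjusted p = 0.0464 and 0.0429), as did 5.23% of all genes. C4a was then not called in either comparison with Veh, and in Dox + ABT against Veh it was 0.42 (limma p = 0.0392). The median log2 fold change of the 9 genes was 0.12 in Dox against Veh, 0.08 in Dox + ABT against Veh and -0.03 in Dox + ABT against Dox, while the medians of all tested genes were 0.0050, -0.00086 and 0.0014.

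**Figure D1:**
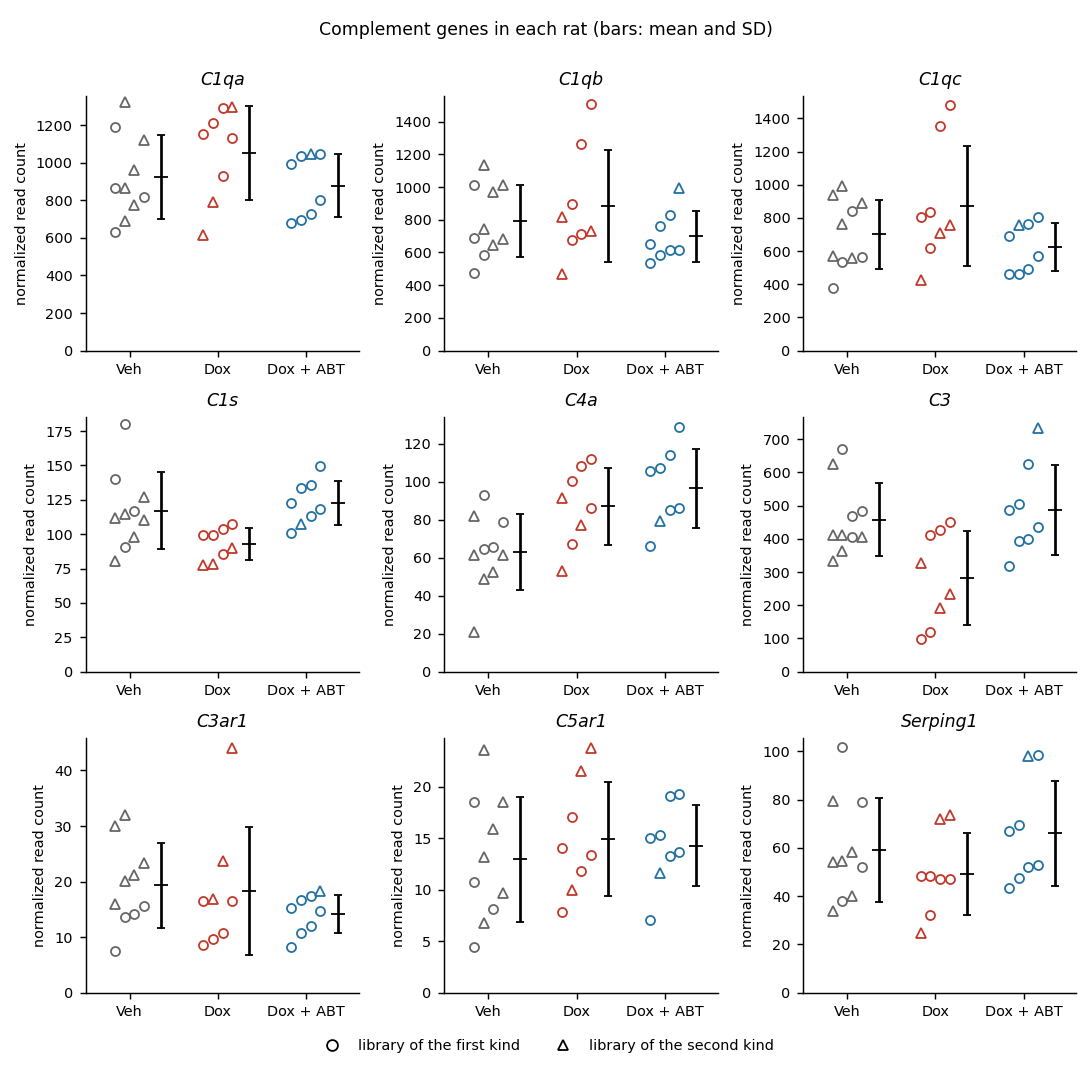
Normalized read counts (vertical axes, starting at 0) of the 9 complement genes in each of the 26 rats, by group, with the mean and SD beside the points; circles are libraries of the first kind and triangles of the second. C3 fell below the lowest Veh rat in 5 of 8 Dox rats, and every Dox rat lay below the Veh median for C1s.

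**Figure D2:**
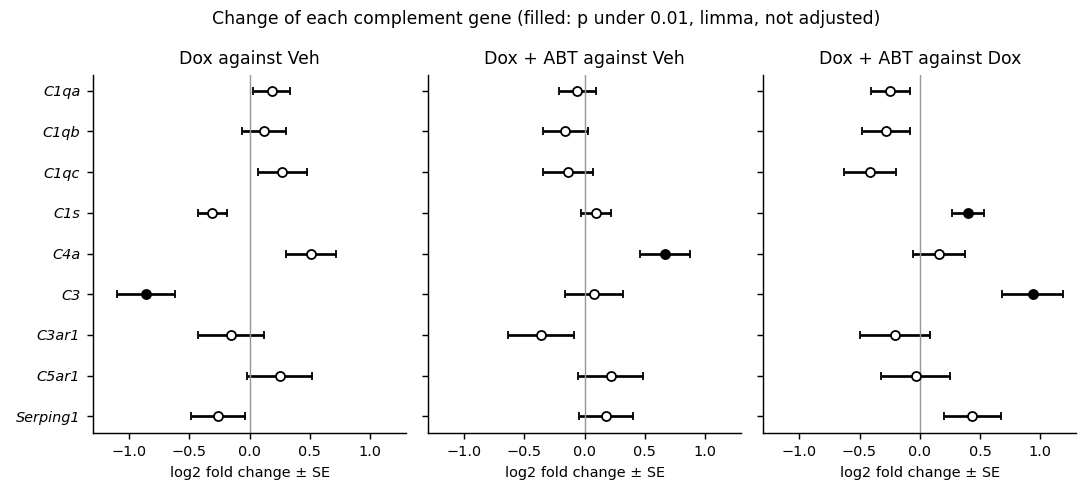
Log2 fold change of each gene (horizontal axes, ± SE from limma) in the 3 comparisons, with filled points at an unadjusted p under 0.01. C3 moved by -0.86 in Dox against Veh and by 0.94 in Dox + ABT against Dox, and C4a by 0.67 in Dox + ABT against Veh.

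C3, the central component of the cascade, was the gene with the widest change in the unweighted fit of all rats. With library weights C4a changed more, by 0.61 in Dox and 0.67 in Dox + ABT, each against Veh. In Veh its lowest, median and highest normalized read counts were 333.3, 411.3 and 670.5. In Dox they were 97.38, 280 and 450.5. The Dox + ABT rats had 319.7, 461.4 and 735.4. The Dox rats split: rats 1 and 2 had 119.6 and 97.38, rats 5 and 7 had 192.2 and 232.5, and rats 9, 10, 13 and 14 had 410.5, 450.5, 425.8 and 327.6. Thus 5 of 8 Dox rats lay under the whole Veh range and the other 3 lay within it, while all 8 Dox + ABT rats lay above the Dox median. Means were 458 ± 109.5 (SD, n = 10) in Veh, 282 ± 140.7 (n = 8) in Dox and 488 ± 135.4 (n = 8) in Dox + ABT. C3 was lower in Dox than in Veh by a log2 fold change of -0.86 ± 0.24 (SE; limma p = 0.00133, adjusted p = 0.188). It was higher in Dox + ABT than in Dox by 0.94 ± 0.25 (p = 0.000949, adjusted p = 0.159), a fold of 1.92, and an exact two-sided permutation test gave p = 0.0107, above the threshold for a call. The exact permutation p in Dox against Veh was 0.00523. Dox + ABT and Veh differed by 0.08 ± 0.24 (p = 0.746), which is within the spread of the rats.

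The change of C3 from Veh to Dox had the same direction in both kinds of library, at -1.01 ± 0.37 in the first and -0.76 ± 0.20 in the second (limma p = 0.0128 and 0.00223). In Dox + ABT against Dox the change was 0.84 in the first kind (limma p = 0.0167), where the call was lost. In the second kind, with 1 Dox + ABT library, it was 1.58. Without Dox rats 1 and 2, the rats with the least C3, the log2 fold change in Dox against Veh was -0.47 (p = 0.0209), and in Dox + ABT against Dox it was 0.54 (p = 0.0107). Without Dox rats 5 and 7 these values were -0.79 (p = 0.00685) and 0.87 (p = 0.00471). With the library weights, the change in Dox against Veh was -0.37 (p = 0.101) and that in Dox + ABT against Dox 0.48 (p = 0.0391). With weights and kind these were -0.46 (p = 0.0432) and 0.42 (p = 0.0582). Both transcript rows of the gene were lower in Dox: the row holding 74.7% of its counts averaged 342.2, 225.3 and 350.5 in Veh, Dox and Dox + ABT. The other row averaged 115.9, 56.74 and 137.6 in the same order.

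Among the Dox rats, hemoglobin transcripts, a sign of blood left in the tissue, were highest in the 4 with the least C3. The summed level of Hba-a1, Hba-a2, Hbb and Alas2 was 25720 and 29120 in Dox rats 1 and 2 and 91670 and 128600 in Dox rats 5 and 7, the 4 rats with the least C3. It was 3608 to 14060 in the other 4 Dox rats, 2327 to 26000 in Veh and 3172 to 11580 in Dox + ABT. With this sum as a covariate C3 was lower in Dox than in Veh by -0.70 on the log2 scale (limma p = 0.00426) and higher in Dox + ABT than in Dox by 0.69 (p = 0.00889). Dox rats 1 and 2 also had the lowest Cx3cr1 of all rats, at 150.8 and 156, where the Veh rats ranged from 404.7 to 655.7. Cx3cr1 is 1 of 16 microglial markers followed here, and their sum fell less: its lowest value was 4953 in Dox and 5121 in Veh. In bulk tissue such as this, fewer cells of a type and less RNA per cell cannot be told apart.

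**Figure D3:**
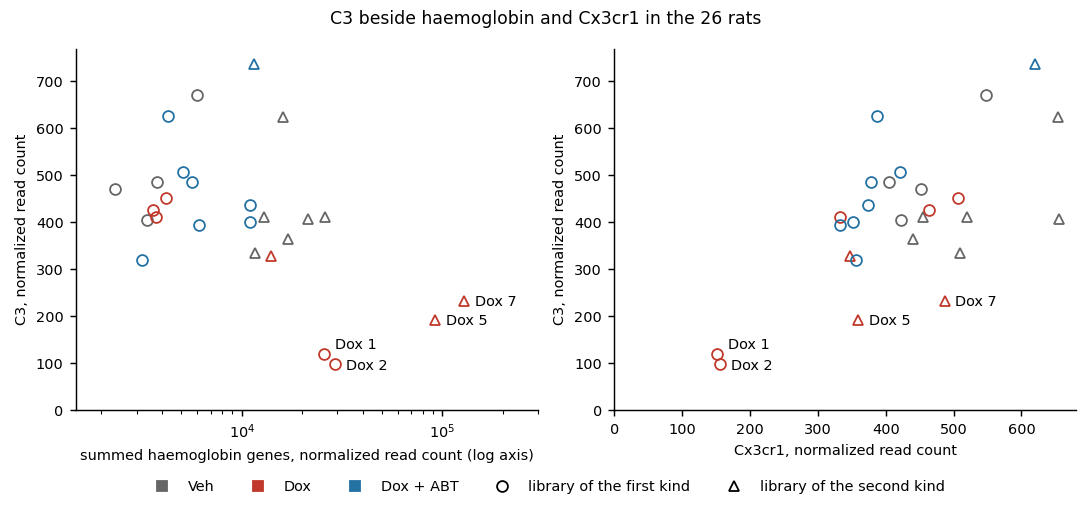
C3 (vertical axes, normalized read counts) in each of the 26 rats against the summed hemoglobin genes (left, log axis) and against the microglial gene Cx3cr1 (right). The 4 Dox rats with the least C3 are marked: rats 5 and 7 had the most hemoglobin of all rats, and rats 1 and 2 the least Cx3cr1.

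None of the 3 genes of C1q was called in limma in the unweighted fit of all rats, and the calls with library weights and within the first kind of library are given with those settings. C1qa had its lowest, median and highest values at 631.6, 864.9 and 1321 in Veh, at 614.9, 1144 and 1299 in Dox, and at 679.6, 898.5 and 1046 in Dox + ABT. C1qb ran from 472.7 over a median of 714.6 to 1138 in Veh, from 467.3 over 774 to 1506 in Dox, and from 532.6 over 635.2 to 992.8 in Dox + ABT. C1qc ran from 376.3 over 666.2 to 991.3 in Veh, from 425 over 781.8 to 1481 in Dox, and from 460.9 over 631.9 to 807.6 in Dox + ABT. The groups overlapped for each of the 3 genes. In Dox against Veh the log2 fold changes were 0.18 ± 0.15 for C1qa, 0.12 ± 0.19 for C1qb and 0.27 ± 0.20 for C1qc (limma p = 0.233, 0.525 and 0.194), and in Dox + ABT against Dox they were -0.24 ± 0.16, -0.28 ± 0.20 and -0.41 ± 0.22 (p = 0.137, 0.163 and 0.0665). Between Dox + ABT and Veh they were -0.06, -0.16 and -0.14 (p = 0.696, 0.394 and 0.501).

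C1qb and C1qc were above the Veh range in the same pair of Dox rats. Dox rats 1 and 2 had 1266 and 1506 for C1qb and 1355 and 1481 for C1qc, above every other rat, and 927.8 and 1214 for C1qa, inside the Veh range. The ratio of C1qb to C1qa was 1.36 and 1.24 in these rats, against 0.857 ± 0.11 (SD, n = 10) in Veh, with a highest value of 1.01, and 0.801 ± 0.122 (n = 8) in Dox + ABT. The ratio of C1qc to C1qa was 1.46 and 1.22, against a highest value of 0.926 in Veh. The ratio of C1qc to C1qb, at 1.07 and 0.983, was close to the Veh values, which reached 1.03. These ratios were looked at after the values had been seen. The same pair of rats thus had the most C1qb and C1qc and the least C3 of all 26. Without them, the changes in Dox against Veh were -0.12 for C1qb and 0.0061 for C1qc (limma p = 0.479 and 0.975), and that of C1qc in Dox + ABT against Dox was -0.15 (p = 0.47).

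**Figure D4:**
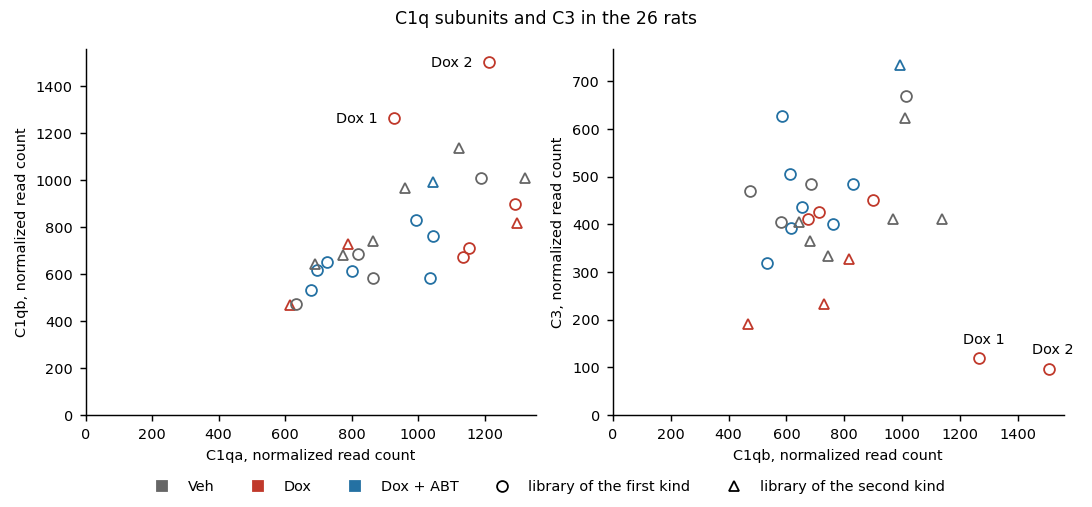
Normalized read counts in the 26 rats, with C1qb against C1qa on the left and C3 against C1qb on the right, colored by group and marked by kind of library. Dox rats 1 and 2 lie apart on both panels, with more C1qb for their C1qa and less C3 for their C1qb than the other 24 rats.

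The change of the C1q genes in Dox had opposite signs in the kinds of library. In the first kind, 5 Dox against 4 Veh libraries gave log2 fold changes of 0.41 for C1qa, 0.54 for C1qb and 0.79 for C1qc (limma p = 0.0219, 0.0257 and 0.00504). In the second kind, 3 Dox against 6 Veh libraries gave -0.12, -0.37 and -0.32 (p = 0.615, 0.103 and 0.176). The difference between the kinds, tested as an interaction, was 0.53 ± 0.29 for C1qa, 0.91 ± 0.33 for C1qb and 1.11 ± 0.37 for C1qc (p = 0.0808, 0.0113 and 0.00568; adjusted p = 0.299, 0.134 and 0.112). For this interaction 7.75% of all tested genes had a p under 0.01. Within the first kind, Dox + ABT was lower than Dox for each of the 3 genes, by -0.44, -0.57 and -0.70 (p = 0.00703, 0.00901 and 0.00459), where 4.62% of all genes were called lower and 3.6% higher, and Dox rats 1 and 2 are among the 5 Dox libraries there. The second kind held 1 Dox + ABT library, and its values gave 0.28, 0.60 and 0.31 against Dox (p = 0.469, 0.103 and 0.417).

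Across the 26 rats, C1qb and C1qc varied together most closely of all pairs among the 9 genes, with a Pearson r of 0.937 after the means of group and kind had been removed. C1qa had an r of 0.694 with C1qb and of 0.715 with C1qc. Without Dox rats 1 and 2, and with the group means alone removed, these were 0.905, 0.81 and 0.843 over 24 rats. C3 had an r of 0.43 with C1qa, of -0.167 with C1qb and of -0.181 with C1qc over 26 rats with the group means removed, and of 0.72, 0.489 and 0.445 over the 24. These values are descriptions, and the points share the size factor and the kind of their library.

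In the RefSeq annotation the 3 C1q genes are direct neighbors, in the order C1qb, C1qc and C1qa, and C1r and C1s are neighbors too. A promoter entry was matched for 5 of the 9 genes. The 250 bases ahead of the start of C1qa and C1qb, the pair of C1q genes with an entry, and of C3, the gene with the widest change in the unweighted fit of all rats, are shown from RefSeq on build GRCr8, each on the minus strand and 5′ to 3′. Capitals mark every match, on either strand, of 4 short motifs: GAGGAA (PU.1), TATAAA (the TATA box), GAAANNGAA (interferon response) and TTGCNNAA (C/EBP).
C1qa, chr5:154419934-154420183: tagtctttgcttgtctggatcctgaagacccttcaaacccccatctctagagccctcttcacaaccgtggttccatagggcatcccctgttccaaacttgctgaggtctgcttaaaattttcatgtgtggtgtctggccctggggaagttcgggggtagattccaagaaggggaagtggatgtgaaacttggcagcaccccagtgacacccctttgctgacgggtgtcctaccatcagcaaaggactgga
C1qb, chr5:154407828-154408077: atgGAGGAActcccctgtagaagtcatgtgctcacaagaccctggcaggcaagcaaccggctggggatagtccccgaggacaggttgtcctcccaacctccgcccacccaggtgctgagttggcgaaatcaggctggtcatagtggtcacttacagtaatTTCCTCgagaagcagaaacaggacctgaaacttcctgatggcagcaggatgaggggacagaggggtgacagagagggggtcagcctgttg
C3, chr9:2201340-2201589: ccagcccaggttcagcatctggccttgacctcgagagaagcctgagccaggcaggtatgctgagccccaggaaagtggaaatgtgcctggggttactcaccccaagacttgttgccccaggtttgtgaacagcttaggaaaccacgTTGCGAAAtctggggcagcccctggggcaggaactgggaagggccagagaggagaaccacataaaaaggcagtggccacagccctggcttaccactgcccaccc

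C1qb held 2 matches of the PU.1 letters, 1 on each strand and not overlapping, and 23.3% of 33469 RefSeq windows of the same length hold at least 1. C3 held 1 match of the C/EBP letters, which 9.22% of the windows hold. C1qa held none of the 4, nor did the windows of C4a and C3ar1. The TATA letters stand in 12.9% and the interferon response letters in 8.12% of the windows. The matches are letters in a window and were not tested as binding sites.

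C1s, the protease that cleaves C4 and C2, was lowest in Dox. It ran from 80.48 over a median of 113.1 to 180.1 in Veh, from 77.49 over 94.8 to 107.3 in Dox and from 101 over 120.3 to 149.7 in Dox + ABT. All 8 Dox rats lay under the Veh median, and 6 of 8 Dox + ABT rats lay above the highest Dox rat. C1s was higher in Dox + ABT than in Dox by a log2 fold change of 0.40 ± 0.13 (limma p = 0.00492, adjusted p = 0.205), and an exact two-sided permutation test gave p = 0.000777. In Dox against Veh the change was -0.31 ± 0.12 (p = 0.0194). With library kind added to the fit as a covariate, under which 1.63% of all genes were called lower, it was -0.37 (p = 0.00348) and the change in Dox + ABT against Dox was 0.33 (p = 0.0102). Within the kinds, Dox against Veh gave -0.37 in the first and in the second (p = 0.0432 and 0.0517), and Dox + ABT against Dox gave 0.32 and 0.39 (p = 0.0418 and 0.193). Leaving out Dox rat 7 or 14 or Dox + ABT rat 2, 3 or 12 brought the p of Dox + ABT against Dox to above 0.01, at most 0.0132, and leaving out Veh rat 12 brought that of Dox against Veh to 0.00522.

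C1r, the protease gene next to C1s, was not among the 9 but had the smallest p of the wider complement list in Dox + ABT against Veh. It averaged 422 ± 41.56 (SD, n = 10) in Veh, 397 ± 46.11 (n = 8) in Dox and 334.1 ± 28.77 (n = 8) in Dox + ABT. It was lower in Dox + ABT than in Veh by -0.33 ± 0.08 (limma p = 0.000197, adjusted p = 0.108) and than in Dox by -0.24 ± 0.08 (p = 0.00604, adjusted p = 0.225). The log2 fold changes of C1s and C1r in Dox + ABT against Dox thus had opposite signs. That of C1r lost its call without Dox rat 1, 7 or 13 or Dox + ABT rat 2, 3, 4 or 11 (p at most 0.0174), without Dox rats 1 and 2 (p = 0.0193) or 5 and 7 (p = 0.0105), with hemoglobin as a covariate (-0.21, p = 0.022), with the 2 groups fitted alone (p = 0.0105), with the replicate block (-0.16, p = 0.208) and within each kind of library (p = 0.0124 and 0.207). Within the kinds C1r in Dox + ABT against Veh was -0.22 and -0.45 (p = 0.0437 and 0.025).

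C4a encodes C4, the component cleaved by C1s. It ran from 21 over a median of 63.19 to 93.02 in Veh, from 52.94 over 88.84 to 112.3 in Dox and from 66.01 over 95.89 to 128.8 in Dox + ABT. All 8 Dox + ABT rats and 7 of 8 Dox rats lay above the Veh median. C4a was higher in Dox + ABT than in Veh by 0.67 ± 0.21 (limma p = 0.00306, adjusted p = 0.109), a fold of 1.59. In Dox against Veh the change was 0.51 ± 0.21 (p = 0.0195), and Dox + ABT and Dox differed by 0.16 ± 0.22 (p = 0.475). With library kind added to the fit, the change in Dox + ABT against Veh was 0.46 (p = 0.0322), within the first kind it was 0.37 (p = 0.06), and within the second, with 1 Dox + ABT library, 0.64 (p = 0.259). The row with 89.3% of the counts of C4a averaged 60.22, 77.83 and 81.29 in Veh, Dox and Dox + ABT, and a second row averaged 1.388, 7.004 and 14.62. On the larger row alone the change in Dox + ABT against Veh was 0.52 (p = 0.0432). Leaving out Dox rat 7 or Veh rat 6 brought the p of Dox against Veh to 0.00676 and 0.00859.

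C4a has a near-identical neighbor, C4b, and reads may be split between them, so the level of either gene alone is uncertain. C4b averaged 32.21 ± 13.1 (SD, n = 10) in Veh, 50.47 ± 16.44 (n = 8) in Dox and 36.44 ± 13.84 (n = 8) in Dox + ABT. Its log2 fold change was 0.67 in Dox against Veh (limma p = 0.0176, adjusted p = 0.402). The sum of both genes, formed after the values had been seen, averaged 95.23 ± 17.73 in Veh, against 137.5 ± 20.41 in Dox and 133 ± 30.18 in Dox + ABT. In Dox 7 of 8 rats lay above the highest Veh sum, 126.6, and in Dox + ABT 6 of 8 did. The sum was higher in Dox than in Veh by 0.53 on the log2 scale (exact permutation p = 0.000457, adjusted over the 3 comparisons 0.00137) and in Dox + ABT than in Veh by 0.46 (exact permutation p = 0.00873, adjusted 0.0131). Dox + ABT and Dox differed by -0.07 (exact permutation p = 0.657). Within the first kind of library the change in Dox against Veh was 0.38 (exact permutation p = 0.0714), and within the second it was 0.62 (exact permutation p = 0.0119, the smallest that 3 against 6 libraries allow). In Dox + ABT against Veh it was 0.34 within the first kind (exact permutation p = 0.121) and 0.21 within the second (exact permutation p = 0.714, where 1 against 6 libraries cannot go below 0.143), so that this call was lost. Without Dox rats 1 and 2 the change in Dox against Veh was 0.61 (exact permutation p = 0.000375).

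The receptors for the C3a and C5a fragments were measured at low levels. C3ar1 ran from 7.443 over a median of 18.04 to 31.92 in Veh, from 8.538 over 16.44 to 43.98 in Dox and from 8.253 over 15 to 18.26 in Dox + ABT. C5ar1 ran from 4.466 over 11.96 to 23.51 in Veh, from 7.819 over 13.73 to 23.74 in Dox and from 7.074 over 14.3 to 19.28 in Dox + ABT. The groups overlapped for both. C3ar1 changed by -0.15 ± 0.27 in Dox against Veh, -0.36 ± 0.27 in Dox + ABT against Veh and -0.21 ± 0.29 in Dox + ABT against Dox (limma p = 0.577, 0.198 and 0.480), and C5ar1 by 0.25 ± 0.27, 0.22 ± 0.27 and -0.03 ± 0.29 (p = 0.364, 0.431 and 0.907). None of these changes was called, and the smallest detectable difference was not tested. The kinds of library set C3ar1 apart more than the treatments did: it averaged 12.71, 12.37 and 13.61 in Veh, Dox and Dox + ABT libraries of the first kind, and 23.76, 28.18 and 18.26 in those of the second.

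Serping1, the gene of the C1 inhibitor, ran from 33.88 over a median of 54.46 to 101.6 in Veh, from 24.57 over 47.77 to 73.79 in Dox and from 43.38 over 59.99 to 98.35 in Dox + ABT. The groups overlapped, with 2 Dox rats below the lowest Veh rat and 2 Dox + ABT rats above the highest Dox rat. Its log2 fold changes were -0.26 ± 0.22 in Dox against Veh, 0.18 ± 0.22 in Dox + ABT against Veh and 0.43 ± 0.24 in Dox + ABT against Dox (limma p = 0.258, 0.439 and 0.0763). Without Dox rats 5 and 7, which had the highest Serping1 of the Dox rats at 73.79 and 71.9, the change in Dox + ABT against Dox was 0.65 (p = 0.0121). Within the first and second kinds of library Dox against Veh gave -0.51 and -0.018 (limma p = 0.0747 and 0.96). Dox + ABT against Dox gave 0.42 in the first (limma p = 0.089) and 0.93 in the second, with 1 Dox + ABT library.

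Since microglia are a main source of C1q in brain, each gene was also set against the summed level of 16 microglial markers. That sum ran from 5121 over a median of 7384 to 8235 in Veh, from 4953 over 5537 to 6610 in Dox and from 5002 over 5504 to 8271 in Dox + ABT. Of the 16 markers 6, Aif1, Cx3cr1, Laptm5, P2ry13 and Tmem119 among them, were called lower in Dox than in Veh, none higher, where 1.85% of all genes were called lower and 1.02% higher. Against Veh, Dox + ABT had 4 called lower, Csf1r, Laptm5, P2ry13 and Trem2, where 3.95% of all genes were called lower and 3.89% higher, and against Dox it had none called in limma. Relative to this sum, no adjusted p was under 0.05 among 27 exact permutation tests, of which 9 had an unadjusted p under 0.05. C1qa differed between Dox and Veh by 0.46 on the log2 scale (exact permutation p = 0.0104, adjusted over 27 tests 0.0703), C1qc by 0.55 (exact permutation p = 0.0199, adjusted 0.107) and C1qb by 0.40 (exact permutation p = 0.0757, adjusted 0.162). C4a differed by 0.79 in Dox (exact permutation p = 0.00882, adjusted 0.0703) and by 0.92 in Dox + ABT (exact permutation p = 0.00261, adjusted 0.0524), each against Veh. C3 differed by -0.58 in Dox against Veh (exact permutation p = 0.0446, adjusted 0.149) and by 0.92 in Dox + ABT against Dox (exact permutation p = 0.00389, adjusted 0.0524). C1s and Serping1 moved by -0.03 and 0.02 in Dox against Veh (exact permutation p = 0.864 and 0.947).

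The wider list of complement genes held 58 symbols, of which 45 had values, under 46 gene IDs because Cfb stands under 2, and 41 of these IDs passed the filter. In Dox against Veh 5 of the 41 were called lower and none higher, where 1.85% of all genes were called lower and 1.02% higher. Other settings gave calls in both directions: 4 higher and 5 lower with library weights, 3 higher and 6 lower with hemoglobin as a covariate, 3 higher and 2 lower within the first kind of library, and 2 higher and 4 lower without Dox rats 5 and 7. Of all genes, 9.25% were called higher and 11% lower with the weights, 4.69% and 5.5% with hemoglobin, 2.42% and 2.33% within the first kind, and 3.19% and 4.07% without rats 5 and 7. Besides C3, the 5 genes included Vtn (vitronectin, -0.70, limma p = 0.000487) and Itgb2 and Itgam (the chains of complement receptor CR3, -0.41 and -0.51, p = 0.00746 and 0.00770). Their adjusted p ran from 0.140 for Vtn to 0.318 for Itgam. Vtn restrains the terminal steps of the cascade, and CR3 binds fragments of C3. Vtn averaged 267.6 ± 81.61 (SD, n = 10) in Veh, 162.1 ± 44.52 (n = 8) in Dox and 204.2 ± 43.23 (n = 8) in Dox + ABT. Itgam averaged 233 ± 46.3 in Veh, against 170.7 ± 58.73 in Dox and 209.7 ± 34.81 in Dox + ABT. Without Dox rats 1 and 2, 2 of the 41 were called lower and 1 higher, where 0.789% of all genes were called lower and 0.372% higher.

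Against Veh, Dox + ABT had 1 of the 41 called higher, C4a, and 2 lower, C1r and Susd4 (a regulator with sushi domains, -0.28, limma p = 0.00484), where 3.89% of all genes were called higher and 3.95% lower. Against Dox it had 2 called higher, C3 and C1s, and 1 lower, C1r, where 1.71% of all genes were called higher and 2.32% lower. In the fit of all rats no gene of the list had an adjusted p under 0.05 in limma, and 10, 4 and 4 of the 41 had an unadjusted p under 0.05 in the 3 comparisons, as did 10.2%, 22.5% and 12.7% of all genes. With library weights 9, 14 and 3 had an adjusted p under 0.05, as did 20.3%, 39.4% and 4.28% of all genes. In Dox against Veh 4 had one with hemoglobin as a covariate and 2 without Dox rats 5 and 7, as did 3.85% and 0.641% of all genes. With weights and kind, 2 of the 41 were called higher and 4 lower in Dox + ABT against Dox, where 4.44% of all genes were called higher and 6.22% lower. By role, all 5 genes of the lectin route, MASP proteases and collectins among them, had no call in any comparison, and neither did C8g, the only gene tested of the terminal route. Of the 15 regulators 2 were called lower in Dox than in Veh, and of the 7 receptor genes 2. The median log2 fold change over the 41 was -0.03, 0.02 and 0.08 in the 3 comparisons, close to that of all tested genes. C7, Cfi, Itgax, C4bpa and Fcnb had means under 5 normalized read counts, at 4.53, 1.45, 0.982, 1.27 and 1.26, and were not tested. The other 13 symbols, C5, C6 and C9 among them, were not analysed here.

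**Figure D5:**
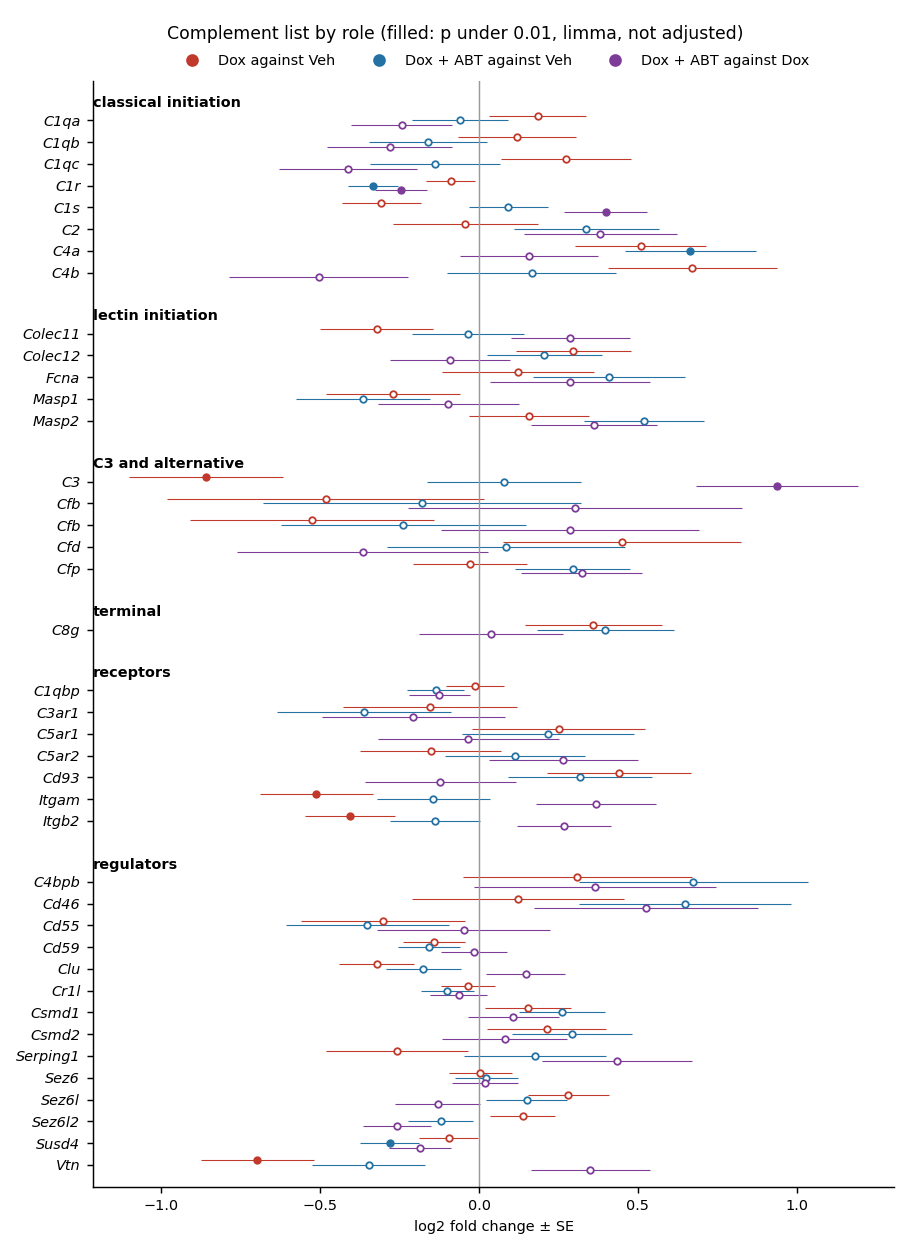
Log2 fold changes (horizontal axis, ± SE from limma) of 40 of the 41 tested complement genes, grouped by role, with 1 color for each of the 3 comparisons and filled points at an unadjusted p under 0.01. C3, Vtn, Itgam and Itgb2 are the filled points below 0 in Dox against Veh.

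The genes whose levels ran most like each of the 9 across the 26 rats, after the means of group and kind had been removed, were Selplg, Slco2b1 and Ccnd1 for C3 (Pearson r = 0.909, 0.887 and 0.883). For C1qa they were Sncb, Ctsd and Metrn (0.933, 0.931 and 0.915). For C1qb they were C1qc, LOC108348139 and Tprg1l (0.937, 0.911 and 0.902), and for C1qc they were C1qb, Htra1 and Tprg1l (0.937, 0.918 and 0.912). C4a ran most like Slc9a3 (0.732), Serping1 like Ndst4 (0.807), C5ar1 like MGC116197 (0.725) and C3ar1 like Mt-nd3 (0.678). The closest likeness was thus higher for C3 and the C1q genes than for these 4. These are descriptions over rats that share library effects, drawn from all genes with a mean of at least 20.

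Other cells that could contribute complement transcripts were followed by their markers. Of all genes, 1.85% were called lower in Dox and 3.95% lower in Dox + ABT, each against Veh, and 1.71% were called higher in Dox + ABT than in Dox. Of 9 astrocyte markers 3, Gfap, Aqp4 and Aldh1l1, were called lower in Dox than in Veh, 1, Aldh1l1, was called lower in Dox + ABT than in Veh, and 1, Aqp4, was called higher in Dox + ABT than in Dox (0.45, limma p = 0.00135). The sum of the 9 ran from 65270 to 103300 in Veh, 59970 to 76090 in Dox and 65040 to 91410 in Dox + ABT. Of 6 tested meningeal markers 2, Col3a1 and Lum, were called lower in Dox than in Veh and higher in Dox + ABT than in Dox, and the sum of the list ran from 220.9 to 447.4 in Veh, 210.6 to 331.7 in Dox and 249.8 to 673.2 in Dox + ABT. The peripheral myeloid markers S100a8, S100a9 and Plac8 were at 0 in 10, 12 and 9 of the 26 libraries and averaged under 5; of the 3 tested, 1, Lyz2, was called higher in Dox + ABT than in Dox, and the sum of the list ran from 268.4 to 568.4 in Veh, 258.2 to 416.6 in Dox and 388.3 to 520.3 in Dox + ABT. Among choroid plexus markers Sostdc1 and Tmem72 were at 0 in 11 and 12 libraries, none of the 3 tested was called in limma, and the sum ran from 15.91 to 128.1, 15.47 to 308.4 and 28.36 to 371.7. Their part in the changes of C3, C1s and C4a was not tested.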

How the data were processed

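Poly(A) RNA from the DG of 26 rats was sequenced on an Ion Proton. Per the study's methods, the authors aligned reads to rn6 with STAR 2.5.3a in Partek Flow and divided counts by Median Ratio size factors, and these normalized values (a signal, not raw counts) were deposited per transcript row. The authors tested with DESeq2; the deposited values are not whole reads, so no count test was run here. Groups came from the sample labels. Rows of a gene were summed. Log2(value + 1) was fitted, for 15595 genes with mean values of 5 or more, with limma 3.58.1 in R 4.3.3 (3 groups, eBayes with trend, all rats), and p-values were adjusted by Benjamini-Hochberg over all of them. The fit was tested on simulated data. Exact permutation tests were two-sided on means of log2 values. Estimated reads rest on the value of 1 read in each library, and precision for low genes covers counting error only. The members and gene lists were chosen with earlier results of these data known. Named genes were the 9 members, the listed complement genes with p under 0.01, and the 3 genes (mean at least 20) most like each member; values of other genes were chosen after they were seen. The results of 3 genes that these rules name or count are not reported here. Replicate numbers did not pair the rats. Alternatives were pseudocounts 0.5 and 5, no filter, a mean of at least 20, no trend, robust eBayes, arrayWeights, 2 groups alone, TMM, quantiles, replicate block, kind of library, the highest transcript row and leaving out each rat; omission of rats 1 and 2 or 5 and 7, hemoglobin, weights with kind, the interaction and the C4 sum were added after seeing the data. Promoters came from RefSeq on GRCr8. Figures used Python 3.11.15 and matplotlib 3.10.9.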

Additional observations from a re-analysis of the deposited data

Results flagged for a closer look

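C3ar1 in Dox rat 7 was 43.98 normalized read counts, set apart from the other 7 Dox rats, of which the next highest had 23.66: the gap was 0.573 of the range of the group. Of 27 sets of values looked at, 9 genes in 3 groups, 1 had such a gap. Chance gives about 1 in 20 for each set, so 1 among 27 is no more than chance gives. Dox rat 7 was also the library with the most hemoglobin transcripts, at a sum of 128600.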

How the results depend on the processing

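C3 was lower in Dox than in Veh under all 46 alternatives (log2 fold change -1.10 to -0.37) and passed p under 0.01 in 42 of them. Against Dox, C3 in Dox + ABT was higher under all 46 (0.42 to 1.58) and passed in 40, and C1s was higher under all 46 (0.32 to 0.45) and passed in 35. C4a was higher in Dox + ABT than in Veh under all 46 (0.37 to 0.74) and passed in 40. The cause of the lost calls was not tested, and the fits within each kind of library also held fewer rats. C3ar1 and C5ar1 rest on few reads in some libraries, and a mean of at least 20 leaves them untested.

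Of the 9 genes, the number called in Dox against Veh was 2 with the kind of library (both lower) or hemoglobin as a covariate and without Dox rats 5 and 7 (each 1 higher, C4a, and 1 lower, C3), and 0 without Dox rats 1 and 2, where limma gave C3 a p of 0.0209. In Dox + ABT against Veh it was 0 within either kind, with kind as a covariate, with weights and kind, on the highest transcript row and with the replicate block, with a p for C4a of 0.0133 to 0.259. In Dox + ABT against Dox it was 1 within the second kind, with kind or hemoglobin as a covariate, on the highest row, without Dox rats 1 and 2 and with the block. With weights the 1 call in Dox against Veh was C4a higher in place of C3 lower. With weights and kind it was C1s lower (-0.40, limma p = 0.00159), with C3 at -0.46 (p = 0.0432). In Dox + ABT against Dox the calls with weights were 1 higher and 2 lower. Weights with kind gave 1 higher and 1 lower there, C1s and C1qa, the first kind gave 3 lower, where 4.62% of all genes were called lower, and without Dox rats 5 and 7 the calls were C3 higher and C1qa lower (-0.43, p = 0.00745), with C1s at p = 0.02. Without Veh rat 11 the adjusted p of C4a in Dox + ABT against Veh was 0.0428. Leaving out each rat gave 1 to 2 in Dox against Veh and in Dox + ABT against Dox. Of the 41 listed genes, the number called in Dox against Veh was 9 with weights (4 higher) or hemoglobin (3 higher), 3 within the second kind, with weights and kind, and without Dox rats 1 and 2 (1 higher in each), and 3 to 8 when each rat was left out (3 without Dox rat 2 or Veh rat 3, 8 without Dox rat 7). For Dox + ABT against Veh it was 9 with weights, 1 with kind, with weights and kind, and within the second kind, and 0 within the first. The shares of all genes in these settings with kind are not given for this comparison, so these counts are no result about the list. For Dox + ABT against Dox the number was 5 with weights (4 lower), 6 with weights and kind (4 lower) and within the first kind (5 lower), 1 with the block, and 1 to 4 when each rat was left out (1 without Dox rat 7 or Dox + ABT rat 2 or 3).

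The replicate numbers do not pair rats: 16 pairs with the same number in other groups had correlations of -0.222 to 0.442, median -0.0125, so the block has no meaning in the design. With the block C1qa was 0.017 in Dox + ABT against Veh and C4a -0.063 in Dox + ABT against Dox, and C1s and C4a lost their calls.

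The log2 fold changes with the opposite sign, none of them called in the fit of all rats, were as follows. Within the first kind, C3, C1qc, C1s, C3ar1 and Serping1 were -0.17, 0.092, -0.044, 0.10 and -0.086 in Dox + ABT against Veh, and C3ar1 and C5ar1 0.14 and 0.16 in Dox + ABT against Dox. Within the second kind, C1qa, C1qb, C1qc and C3ar1 were -0.12, -0.37, -0.32 and 0.17 in Dox against Veh. There C1qa, C1qb and C5ar1 were 0.16, 0.23 and -0.21 in Dox + ABT against Veh, and C1qa, C1qb and C1qc 0.28, 0.60 and 0.31 in Dox + ABT against Dox. With kind as a covariate, C1s was -0.032 in Dox + ABT against Veh, C3ar1 was 0.040, 0.049 and 0.0093 in the 3 comparisons, and C5ar1 was 0.053 in Dox + ABT against Dox. With weights, C5ar1 was -0.0033 in Dox against Veh, and C3ar1 and C5ar1 were 0.045 and 0.29 in Dox + ABT against Dox. With weights and kind, C3 and C1s were -0.041 and -0.022 in Dox + ABT against Veh, C3ar1 was 0.10, 0.23 and 0.13 in the 3 comparisons, and C5ar1 was 0.40 in Dox + ABT against Dox. With hemoglobin, C3 was -0.0067 in Dox + ABT against Veh, and C4a, C3ar1 and C5ar1 were -0.048, 0.15 and 0.20 in Dox + ABT against Dox. On the highest row C3 was -0.021 in Dox + ABT against Veh. Without Dox rats 1 and 2, C1qb was -0.12 in Dox against Veh and C5ar1 0.0091 in Dox + ABT against Dox. Without Dox rats 5 and 7, C3ar1 and C5ar1 were 0.038 and 0.18 in Dox + ABT against Dox. Relative to 4 microglial markers, C1s was 0.10 in Dox against Veh and C3ar1 0.076 in Dox + ABT against Veh, and relative to the mean log2 marker value C1s was 0.064 in Dox against Veh.

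Leaving out each rat gave ranges across 0 for C3 (-0.012 to 0.16) and C1qa (-0.12 to 0.0018) in Dox + ABT against Veh, C1qb (-0.0023 to 0.24) in Dox against Veh, and C5ar1 (-0.14 to 0.091) and the C4 sum (-0.13 to 0.029) in Dox + ABT against Dox. Relative to the microglial sum it did so for C1s (-0.12 to 0.048), C3ar1 (-0.046 to 0.22) and Serping1 (-0.10 to 0.17) in Dox against Veh and for C5ar1 (-0.15 to 0.057) in Dox + ABT against Dox. The higher C4 sum in Dox + ABT against Veh lost p under 0.01 without Veh rat 1, 2, 4, 5, 9, 10 or 12 or Dox + ABT rat 1, 2, 3, 5, 11 or 12, with p up to 0.0185.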

Other observations

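Genes with a C1q-like domain outside the complement cascade, which encode secreted organizers of synapses, were a further group. Of the 6 tested, 4 were called lower in Dox + ABT than in Veh, where 3.95% of all genes were: C1ql2 (log2 fold change -0.46, limma p = 0.000697), Cbln1 (-0.40, p = 0.00457), C1ql1 (-0.44, p = 0.00469) and C1ql3 (-0.55, p = 0.00786). The adjusted p of these 4 was 0.109 to 0.12. In Dox against Veh limma called 0, with an unadjusted p under 0.05 for 2, C1ql1 and Cbln1 (-0.32 in each, p = 0.0357 and 0.0216), and with sample weights it called 3, C1ql1, C1ql2 and Cbln1 (p = 0.000463, 0.00871 and 0.00857), where 11% of all genes were called lower, and C1ql3 went from 0.11 to -0.36 (p = 0.0369). Within the first kind of library the changes of C1ql1, C1ql2 and Cbln1 in Dox against Veh were 0.098, 0.051 and -0.12 (p = 0.54, 0.67 and 0.531), and within the second -0.61, -0.25 and -0.47 (p = 0.00118, 0.179 and 0.00712). With hemoglobin as a covariate C1ql1 was called lower in Dox than in Veh (-0.41, p = 0.00412), as were 5.5% of all genes. C1ql3 was called lower in Dox + ABT than in Dox (-0.66, p = 0.00314), and was -0.36 without Dox rats 5 and 7 (p = 0.0365) and -0.35 with hemoglobin as a covariate (p = 0.0336). C1ql2 averaged 7174 ± 1632 (SD, n = 10) in Veh, 6288 ± 888.9 (n = 8) in Dox and 5129 ± 783.8 (n = 8) in Dox + ABT, and C1ql3 averaged 2376 ± 791.4, 2654 ± 1316 and 1548 ± 133. The kind of library moved with these values: within the first kind the changes in Dox + ABT against Veh were -0.18 for C1ql2, -0.23 for Cbln1, -0.084 for C1ql1 and -0.15 for C1ql3 (limma p = 0.129, 0.225, 0.577 and 0.0882), and within the second, with 1 Dox + ABT library, they were -0.68, -0.55, -0.41 and -0.70 (p = 0.0246, 0.0286, 0.089 and 0.0843). With kind as a covariate C1ql2 was called lower (-0.33, p = 0.00812) and the other 3 were not. In Dox + ABT against Dox, C1ql3 was -0.32 within the first kind and -1.13 within the second (p = 0.000669 and 0.0152). C1ql2 and C1ql3 are also on the list of 6 granule cell markers. They are 2 of the 3 markers of that list called lower in Dox + ABT than in Veh, so that count is no separate result.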
